A study of Mus musculus with 23 samples.

Results

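The 10 genes described here encode receptors through which macrophages receive cytokines for growth, survival and restraint: Csf1r, Csf2ra, Csf2rb, Csf2rb2, Csf3r, Il3ra, Il10ra, Il10rb, Tgfbr1 and Tgfbr2. They were chosen by name, with earlier results of these data known. They are 10 of the 26139 genes listed in the series' 2 tables. All 10 are in both tables, and all 10 passed the filter on low values there.

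Messenger RNA was sequenced from sorted macrophages of C57BL/6 mice, with 1000 cells per library, to study cells left after loss of the nuclear receptor PPARγ. The 23 libraries fall into 8 groups. Spleen red pulp macrophages of 7-day-old pups with vavCre (RPM_d7_vavCre, 3 libraries) are set against wild type (RPM_d7_WT, 3), and bone marrow macrophages of such pups (BMM_d7_vavCre, 3) against theirs (BMM_d7_WT, 3). These 4 groups form the first table. The other table holds red pulp macrophages of day-7 pups labelled Spic_KO (RPM_d7_Spic_KO, 2) with their controls (RPM_d7_Spic_WT, 3), and adult red pulp macrophages labelled TAM_CreERT2 (RPM_TAM_CreERT2, 4) with wild type (RPM_TAM_WT, 2). VavCre is a Cre recombinase driven by the Vav promoter in blood-forming cells, and CreERT2 is a form of the enzyme that acts once tamoxifen is given. TAM is read here as tamoxifen. The labels name neither the floxed gene, nor the promoter of CreERT2, nor whether the wild-type mice carry floxed alleles, nor whether replicates are separate animals, so p-values measure the spread between libraries. The tables were scaled separately, and levels are compared within a table only.

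CSF1R is the receptor kinase for CSF-1 and IL-34, on which most tissue macrophages depend for survival. The receptors for GM-CSF and IL-3 each pair a ligand-specific alpha chain (CSF2RA, IL3RA) with the common beta chain CSF2RB, and mice have a further beta chain, CSF2RB2, that serves IL-3. All of these beta chains signal through JAK2 and STAT5. IL-10 acts through IL10RA and IL10RB and STAT3 to restrain inflammatory genes, and TGF-β binds the type II receptor TGFBR2, which activates the type I receptor TGFBR1 and SMAD proteins. GM-CSF and TGF-β are known for inducing PPARγ in alveolar macrophages of the lung.

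In day-7 vavCre macrophages the beta chain genes Csf2rb and Csf2rb2 were higher than in wild type in both tissues, Tgfbr2 was higher in the spleen, and Csf1r and Csf3r were higher in the marrow, the Csf3r call being lost under 9 of 16 alternatives. No receptor gene was called lower in either tissue. In the spleen 3 of the 10 genes rose, where 5.52% of all 15130 genes tested were called in either direction (limma, adjusted p under 0.05). In the marrow 4 of the 10 rose, where 7.81% of all genes were called. The median log2 change of the 10 genes was 0.36 in the spleen and 0.57 in the marrow, beside -0.02 and -0.04 over all genes tested. The libraries of vavCre and wild type did not overlap for 6 of the 10 genes in the spleen, where 24% of all genes did not, and for 6 in the marrow, where 19.8% did not.

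Promoters of genes called in vavCre macrophages are shown first: Csf2rb2 was called in both tissues, Tgfbr2 in the spleen and Csf3r in the marrow. The RefSeq promoter table (GRCm38.p6) matched 6 of the 10 genes, Csf2ra, Csf2rb2, Csf3r, Il3ra, Tgfbr1 and Tgfbr2, with 7 promoters between them. The 250 bases before the RefSeq start site are given for Csf2rb2 (chr15:78305722-78305971, minus strand) and Tgfbr2 (chr9:116175364-116175613, minus strand), read 5′ to 3′, and for Csf3r (chr4:126024409-126024658, plus strand). Capitals mark GAGGAA on either strand, the core recognised by PU.1, the macrophage factor that controls many of these receptors. In the GENCODE annotation Csf3r begins at 126024550, so the end of its stretch, with the capitals, lies inside that gene.
Csf2rb2: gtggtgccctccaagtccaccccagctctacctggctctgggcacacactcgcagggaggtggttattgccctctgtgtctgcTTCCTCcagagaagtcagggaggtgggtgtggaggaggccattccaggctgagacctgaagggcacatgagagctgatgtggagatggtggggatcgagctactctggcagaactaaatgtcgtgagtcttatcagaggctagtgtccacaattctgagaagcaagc
Tgfbr2: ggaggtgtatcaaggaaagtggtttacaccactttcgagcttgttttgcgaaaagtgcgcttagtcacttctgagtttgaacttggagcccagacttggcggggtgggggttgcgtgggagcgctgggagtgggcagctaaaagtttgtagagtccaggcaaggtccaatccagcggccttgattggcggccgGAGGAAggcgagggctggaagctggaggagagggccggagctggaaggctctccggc
Csf3r: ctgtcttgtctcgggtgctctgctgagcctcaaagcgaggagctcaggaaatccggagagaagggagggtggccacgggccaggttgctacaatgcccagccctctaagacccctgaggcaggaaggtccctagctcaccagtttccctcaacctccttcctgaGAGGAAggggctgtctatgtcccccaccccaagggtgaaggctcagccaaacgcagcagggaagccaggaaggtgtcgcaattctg
GAGGAA or its complement was in 5 of the 7 promoters of these genes, and in 23.25% of all 32851 promoters of that length. The promoter of Il3ra and 1 of the 2 of Tgfbr1 did not hold it. The nuclear receptor half-site AGGTCA was in 14.0% of all promoters, AGGTCA repeated in the same direction after a single base N, which PPARγ binds with RXR, in 0.0335%, and the SMAD palindrome GTCTAGAC in 0.167%. None of these 3 was found in the 7 promoters of these genes. A match of letters is a description and not a binding site.

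Sequencing depth differed between groups. Recovered reads per library were 12.01 to 17.1 M in RPM_d7_vavCre, 11.6 to 21.7 M in RPM_d7_WT, 4.26 to 7.88 M in BMM_d7_vavCre, 4.58 to 10.85 M in BMM_d7_WT, 2.85 to 3.07 M in RPM_d7_Spic_KO, 4.24 to 6.29 M in RPM_d7_Spic_WT, 0.693 to 1.67 M in RPM_TAM_CreERT2 and 1.90 to 4.24 M in RPM_TAM_WT. Csf1r had 1091 to 40259 reads per library and Csf2rb2 11 to 1142. In the other table RPM_d7_Spic_KO replicate 2 and RPM_TAM_CreERT2 replicate 2 stood apart, with median correlations with libraries of other groups of 0.747 and 0.732, against 0.815 to 0.884 for the other 9 libraries. Pparg itself had 2496 to 4002 normalised reads in RPM_d7_vavCre against 1550 to 2124 in RPM_d7_WT (log2 change 0.74, limma adjusted p = 0.03125). In the marrow it had 1813 to 2972 in BMM_d7_vavCre against 1601 to 1703 in BMM_d7_WT (log2 change 0.45, limma adjusted p = 0.193). It had 26.0 and 21.7 in RPM_d7_Spic_KO against 210.6 to 330.4 in RPM_d7_Spic_WT, and 181.7 to 261.2 in RPM_TAM_CreERT2 against 92.3 and 167.8 in RPM_TAM_WT. Counts of a whole gene do not show the loss of an exon, so neither Pparg nor Spic settles a label here. Spic had 931.1 and 1236 normalised reads in RPM_d7_Spic_KO against 1993 to 3110 in RPM_d7_Spic_WT, a log2 change of -1.16 (limma adjusted p = 0.0319), where Pparg changed by -3.33 (adjusted p = 2.905e-05). Spic was also lower in RPM_d7_vavCre, with 8417 to 10010 against 14180 to 16130 in RPM_d7_WT (log2 change -0.69, adjusted p = 0.00116).

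**Figure D1:**
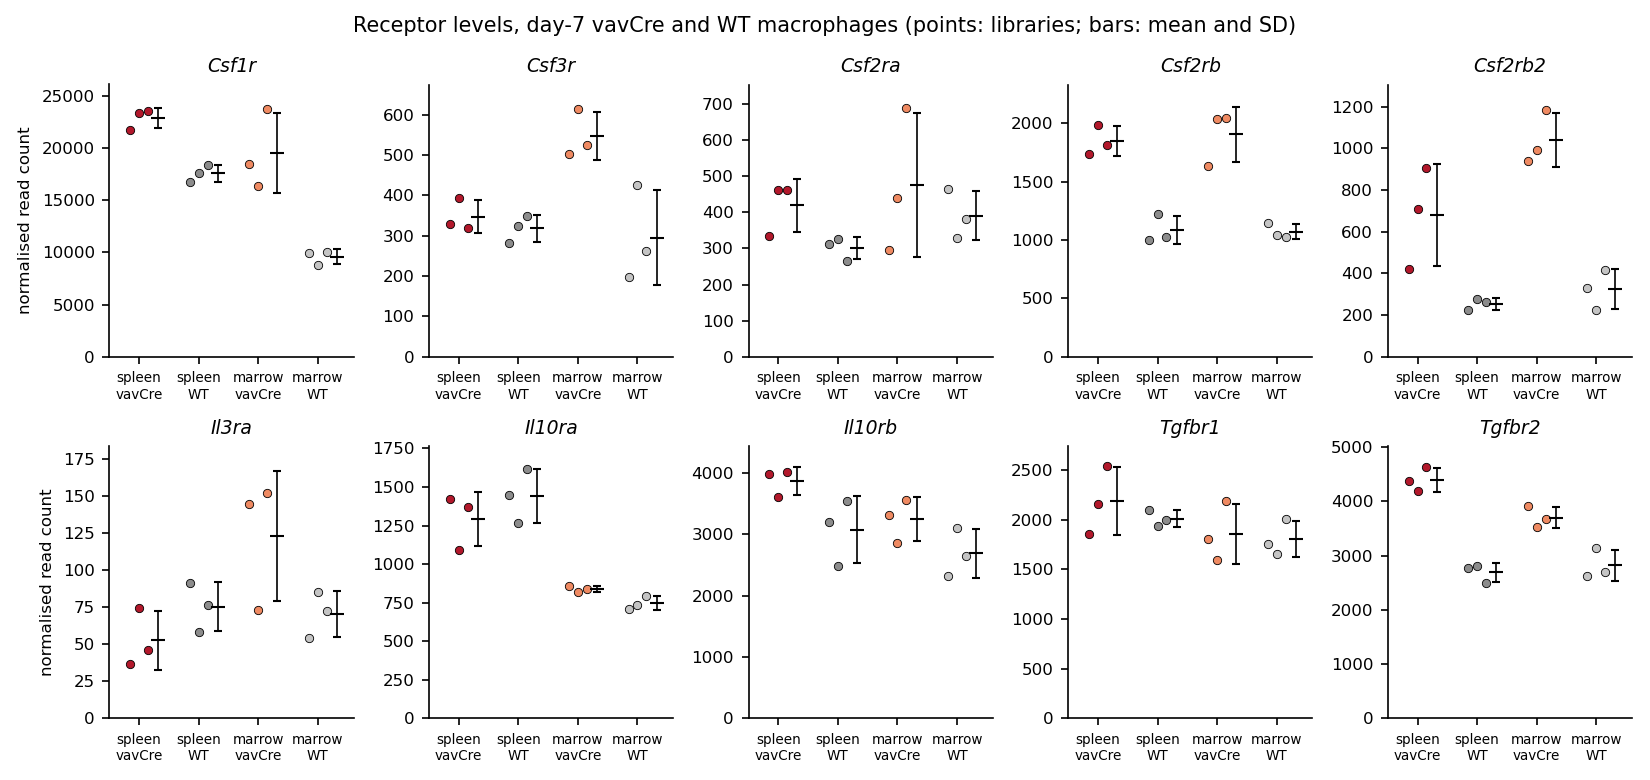
Normalised read count (vertical axis, linear, from 0) of each receptor gene in the 12 day-7 libraries; points are libraries and bars are the mean and SD of 3. The vavCre points lie above the wild-type points of the same tissue for Csf1r, Csf2rb, Csf2rb2 and Tgfbr2 in both tissues, for Csf2ra and Il10rb in the spleen, and for Csf3r and Il10ra in the marrow.

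Csf1r, on chromosome 18 (61100598 to 61132149, plus strand, GRCm38), was the most abundant of the 10 genes per kilobase of exon in each of the 8 groups. Its normalised read counts were 18490, 16340 and 23770 in BMM_d7_vavCre, against 9984, 8770 and 10080 in BMM_d7_WT. Every vavCre marrow library was above every wild-type one, and the mean was 19530 ± 3823 against 9611 ± 730.2 (SD, n = 3 each). The log2 change was 1.01 (SE 0.11, 95% interval 0.77 to 1.24, limma adjusted p = 1.022e-05).

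In the spleen the Csf1r counts were 21770, 23330 and 23570 in RPM_d7_vavCre, against 16780, 17580 and 18370 in RPM_d7_WT. The groups did not overlap there either, but the log2 change of 0.38 (SE 0.11, interval 0.15 to 0.62) missed the threshold, with a limma adjusted p of 0.0547. It passed under 5 of the alternatives, with adjusted p between 0.0168 and 0.0492. Between wild types Csf1r was higher in the spleen than in the marrow, by a log2 difference of 0.87 (SE 0.11, limma adjusted p = 0.00011). Between vavCre tissues the difference was 0.25 (interval 0.01 to 0.48, adjusted p = 0.280). The vavCre effect on Csf1r was smaller in the spleen than in the marrow by 0.63 on the log2 scale (interval -0.96 to -0.29), which had an unadjusted p of 0.000917 and a limma adjusted p of 0.262. The order of the 4 groups was RPM_d7_vavCre, BMM_d7_vavCre, RPM_d7_WT and BMM_d7_WT, and only BMM_d7_WT did not overlap with its neighbour. Exons of Csf1r overlap those of Hmgxb3 on the opposite strand and share 14.3% of their 50-base words with it, and no source says that strand was used in counting. Hmgxb3 itself averaged between 165.8 and 246.2 normalised reads over these groups.

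Csf3r, the receptor for G-CSF and a gene typical of neutrophils (chromosome 4, 126024550 to 126044440, plus strand), had 502.4, 614.5 and 525.1 normalised reads in BMM_d7_vavCre, against 197.1, 426.6 and 262.3 in BMM_d7_WT. All 3 vavCre marrow libraries were above the wild-type ones, of which replicate 2 was closest. The log2 change was 0.96 (SE 0.28, interval 0.36 to 1.55, limma adjusted p = 0.0439). That call was lost when any marrow library other than BMM_d7_WT replicate 2 was left out, with adjusted p between 0.0649 and 0.180, in edgeR on recovered reads (adjusted p 0.0612 and 0.0638), with no filter (0.0544) and with compared groups only (0.117). In the spleen Csf3r had 328.9, 393.4 and 319.7 in RPM_d7_vavCre and 281.0, 324.9 and 348.2 in RPM_d7_WT, which overlap, with a log2 change of 0.13 (interval -0.47 to 0.72). The difference between the effects was -0.83 (interval -1.67 to 0.01, adjusted p = 0.803).

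The 12 neutrophil markers summed to 1442 to 2085 in BMM_d7_vavCre against 973.3 to 4302 in BMM_d7_WT, with none called. Elane was at 0 in both marrow groups and Ly6g in BMM_d7_vavCre. In the spleen they summed to 2558 to 5691 in RPM_d7_vavCre against 322.4 to 2427 in RPM_d7_WT, and 2 of the 12 rose, Mmp8 and Retnlg. The part of neutrophil RNA in the Csf3r values was not tested. In bulk samples such as these, fewer cells of a type and less RNA per cell cannot be told apart.

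The common beta chain gene Csf2rb lies on chromosome 15 (78325752 to 78353847, plus strand). In the spleen it had 1740, 1988 and 1813 normalised reads in RPM_d7_vavCre, against 1001, 1222 and 1029 in RPM_d7_WT. In the marrow it had 1631, 2034 and 2048 in BMM_d7_vavCre, against 1148, 1047 and 1024 in BMM_d7_WT. All 6 vavCre libraries were above all 6 wild-type libraries, and the tissues lay close together within each genotype. The log2 change was 0.77 in the spleen (SE 0.16, limma adjusted p = 0.00402) and 0.82 in the marrow (SE 0.16, adjusted p = 0.00227). The difference between these effects was -0.05 (interval -0.51 to 0.41).

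Csf2rb2, the IL-3 beta chain gene, is its neighbour (78282507 to 78305721, minus strand), transcribed away from it with 20.03 kb between their starts. Its counts were 422.8, 710.5 and 906.0 in RPM_d7_vavCre, against 223.0, 277.6 and 260.5 in RPM_d7_WT. In the marrow they were 937.8, 993.9 and 1184 in BMM_d7_vavCre, against 331.8, 223.4 and 416.0 in BMM_d7_WT. No vavCre library overlapped with wild type of its tissue, and Csf2rb2 had the largest log2 change of the 10 genes in both: 1.36 in the spleen (SE 0.29, limma adjusted p = 0.00607) and 1.72 in the marrow (SE 0.29, adjusted p = 0.000723). Without RPM_d7_vavCre replicate 3 the spleen change was 1.11 (adjusted p = 0.057). The difference between the tissues' effects was -0.36 (interval -1.21 to 0.49, adjusted p = 0.927).

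Csf2rb and Csf2rb2 are near copies, and 18.4% of the 50-base words of Csf2rb2 transcripts also occur in Csf2rb, so reads may be split between them. Their summed count was 2163, 2698 and 2719 in RPM_d7_vavCre against 1224, 1500 and 1290 in RPM_d7_WT, a log2 change of 0.92 (limma adjusted p = 0.000648). In the marrow the sum was 2569, 3028 and 3232 in BMM_d7_vavCre against 1480, 1270 and 1440 in BMM_d7_WT, a change of 1.07 (adjusted p = 0.000117). The pair rose in both tissues without regard to how shared reads were split. Csf2rb2 made up 26.4% ± 6.89 of the sum in RPM_d7_vavCre against 19.0% ± 1.064 in RPM_d7_WT, where the groups overlap (SD, n = 3 each). In the marrow it made up 35.3% ± 2.16 in BMM_d7_vavCre against 23.0% ± 5.67 in BMM_d7_WT, where they do not.

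Neither alpha chain gene passed the test. Csf2ra, the GM-CSF alpha chain (chromosome 19, 61223957 to 61228429, minus strand), had 335.1, 462.9 and 460.9 normalised reads in RPM_d7_vavCre against 311.2, 326.6 and 266.5 in RPM_d7_WT. The spleen groups did not overlap, but the log2 change of 0.47 had an interval of -0.15 to 1.08 (limma adjusted p = 0.507). In the marrow it was 0.21 (interval -0.41 to 0.83), with 297.2, 438.8 and 690.3 in BMM_d7_vavCre and 464.5, 328.5 and 380.4 in BMM_d7_WT. Il3ra, the IL-3 alpha chain (chromosome 14, 14346275 to 14356011, plus strand), was the lowest of the 10 genes per kilobase in all 4 groups, with 27 to 167 reads per library. Its log2 change was -0.55 in the spleen (interval -1.65 to 0.56) and 0.75 in the marrow (interval -0.36 to 1.85), so changes in either direction are within the error. Per kilobase the ratio of Csf2rb to Csf2ra was 1.55 to 2.05 in RPM_d7_vavCre against 1.27 to 1.52 in RPM_d7_WT, with no overlap. It was 1.17 to 2.17 in BMM_d7_vavCre and 0.9751 to 1.26 in BMM_d7_WT, which overlap.

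**Figure D2:**
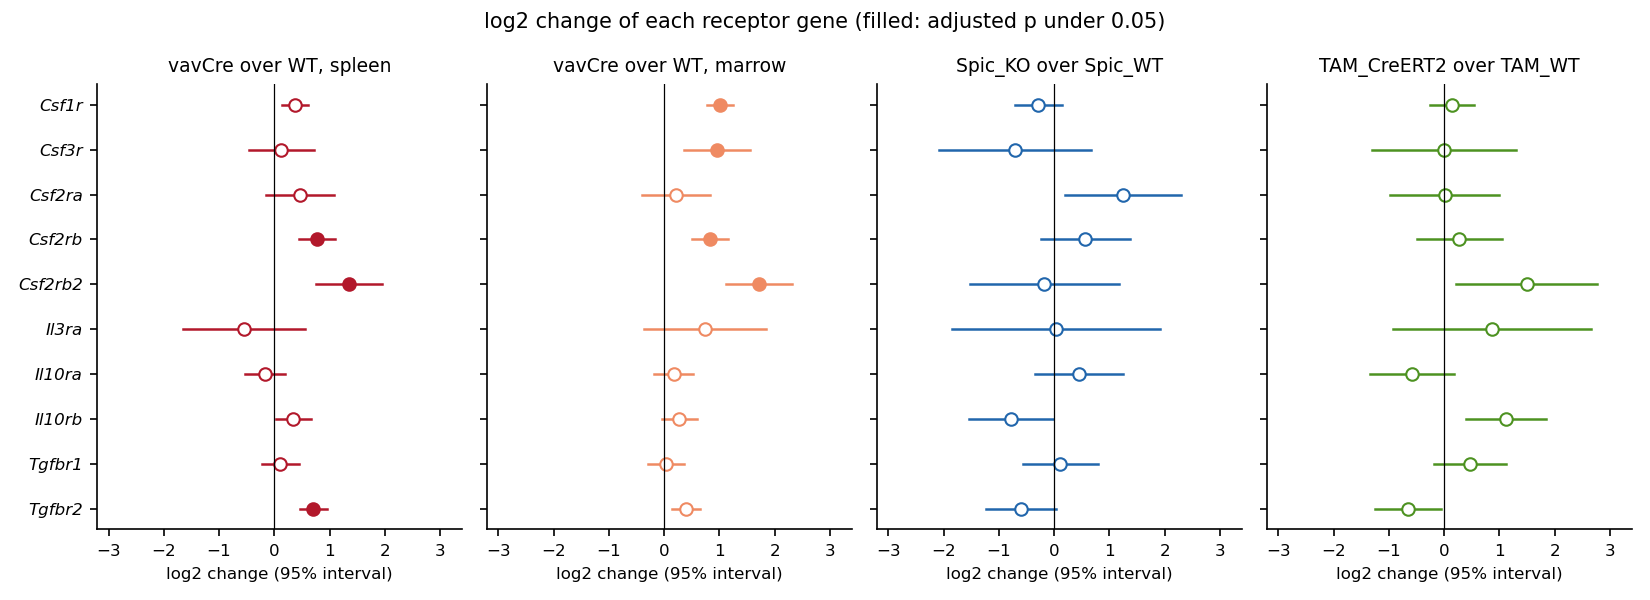
Log2 change (horizontal axis) of each receptor gene (rows) with its 95% interval from limma in 4 comparisons; filled points have an adjusted p under 0.05. Filled points are Csf2rb, Csf2rb2 and Tgfbr2 in the spleen and Csf1r, Csf3r, Csf2rb and Csf2rb2 in the marrow, all to the right of 0, and there are none in Spic_KO or TAM_CreERT2.

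Tgfbr2, the TGF-β-binding type II receptor (chromosome 9, 116084293 to 116175360, minus strand), had 4376, 4196 and 4631 normalised reads in RPM_d7_vavCre, against 2774, 2812 and 2488 in RPM_d7_WT. The groups are far apart, and the log2 change of 0.71 (SE 0.12, interval 0.46 to 0.96) had the smallest adjusted p of the 10 genes in the spleen (limma, 0.000788). In the marrow its mean was 3701 ± 192.3 in BMM_d7_vavCre against 2824 ± 283.4 in BMM_d7_WT (SD, n = 3 each), again with no overlap. There the change of 0.39 (SE 0.12, interval 0.14 to 0.65) missed the threshold (limma adjusted p = 0.0511). It passed under 4 alternatives, with adjusted p between 0.0184 and 0.0460. The difference between the effects was 0.32 (interval -0.04 to 0.67, adjusted p = 0.850).

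Tgfbr1, the type I partner (chromosome 4, 47353222 to 47414931, plus strand), had 1852, 2161 and 2536 in RPM_d7_vavCre and 2101, 1935 and 1991 in RPM_d7_WT. The groups overlap, and the log2 change was 0.11 (interval -0.22 to 0.44) in the spleen and 0.03 (interval -0.30 to 0.36) in the marrow. Per kilobase of exon the ratio of Tgfbr2 to Tgfbr1 was 1.46 to 1.89 in RPM_d7_vavCre against 0.997 to 1.16 in RPM_d7_WT, with no overlap. In the marrow it was 1.34 to 1.77 in BMM_d7_vavCre and 1.07 to 1.52 in BMM_d7_WT, which overlap.

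Il10ra, the IL-10-binding chain (chromosome 9, 45253837 to 45269149, minus strand), was higher in the spleen than in the marrow of wild-type pups. It had 1445, 1268 and 1619 normalised reads in RPM_d7_WT, against 705.8, 735.9 and 795.4 in BMM_d7_WT. The wild-type tissues did not overlap, and the log2 difference was 0.95 (SE 0.17, interval 0.59 to 1.31, limma adjusted p = 0.00298). Among vavCre libraries it had 1420, 1089 and 1367 in RPM_d7_vavCre against 856.1, 816.9 and 839.7 in BMM_d7_vavCre. That difference of 0.62 (interval 0.26 to 0.97) missed the threshold (adjusted p = 0.0540) and passed under 3 alternatives. The genotype changes were -0.16 in the spleen (interval -0.52 to 0.20) and 0.17 in the marrow (interval -0.19 to 0.53).

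Il10rb, the shared chain of the IL-10 and IL-22 receptors (chromosome 16, 91406164 to 91425834, plus strand), was the next most abundant of the 10 genes per kilobase after Csf1r in the 4 day-7 groups of the first table. It had 3981, 3610 and 4019 in RPM_d7_vavCre against 3206, 2476 and 3546 in RPM_d7_WT, which do not overlap. The log2 change was 0.35 (interval 0.03 to 0.66, limma adjusted p = 0.252), and in the marrow it was 0.28 (interval -0.04 to 0.59, adjusted p = 0.324). Transcripts of Il10rb share 13.6% of their 50-base words with the predicted gene Gm21970, so its reads may be split. Gm21970 itself averaged between 1251 and 2074 normalised reads over these groups. Per kilobase the ratio of Il10rb to Il10ra was 2.58 to 3.05 in RPM_d7_vavCre against 1.79 to 2.04 in RPM_d7_WT, with no overlap. It was 3.21 to 3.89 in BMM_d7_vavCre and 3.01 to 3.88 in BMM_d7_WT, which overlap and lie above both spleen groups but for the vavCre spleen's highest library.

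**Figure D3:**
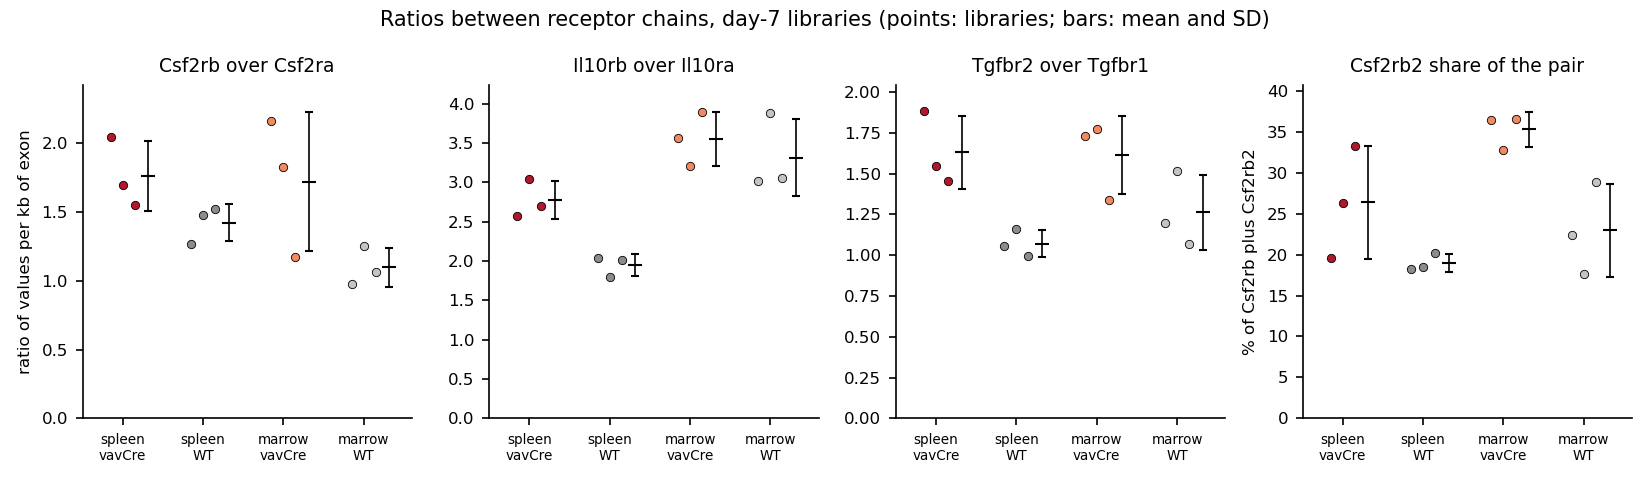
Ratio of values per kilobase of exon between the chains of a receptor (left 3 panels) and Csf2rb2 as a percentage of Csf2rb plus Csf2rb2 (right panel) in the 12 day-7 libraries; points are libraries and bars are the mean and SD of 3. Spleen vavCre lies above spleen wild type without overlap in all 3 ratios, and marrow vavCre lies above marrow wild type without overlap in the Csf2rb2 share.

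Between tissues, 2 of the 10 genes were higher in RPM_d7_WT than in BMM_d7_WT, Csf1r and Il10ra, and none was lower, where 3.89% of all genes were called. Between RPM_d7_vavCre and BMM_d7_vavCre none of the 10 passed (3.5% of all genes called). By unadjusted p under 0.05, 5 of the 10 and 2495 of all genes passed. Of these, Csf2rb2 at -0.67, Csf3r at -0.66 and Il3ra at -1.20 had intervals below 0 and adjusted p from 0.240 to 0.253 by limma. None of the 10 passed the test of the difference between the tissues' vavCre effects, where 0.119% of all genes were called. By unadjusted p under 0.05 that test had 1 of the 10, Csf1r, and 935 of all genes, and edgeR and DESeq2 on recovered reads called none of the 10.

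Ligands and downstream genes give the surroundings of these receptors. Of 76 ligand, adaptor and signalling genes in 7 lists, 72 were tested in each table. In the spleen 4 rose and 2 fell in vavCre, where 5.52% of all genes were called. In the marrow 3 rose and 2 fell, where 7.81% were called. The medians of the 72 genes were 0.10 and 0.02, beside -0.02 and -0.04 over all genes. Of the ligands, Il10 rose in the spleen. It averaged 210.9 ± 81.8 normalised reads in RPM_d7_vavCre against 17.2 ± 8.13 in RPM_d7_WT, a log2 change of 3.56 (SE 0.60, limma adjusted p = 0.000743). In the marrow it averaged 123.5 ± 50.6 in BMM_d7_vavCre and 45.6 ± 15.2 in BMM_d7_WT, a change of 1.36 that missed the threshold (adjusted p = 0.197), and the difference between the tissues' effects, 2.20, had an adjusted p of 0.683.

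Of the other ligands, Csf1 averaged 44.4 ± 14.2 in RPM_d7_vavCre and 14.6 ± 9.23 in RPM_d7_WT, and 82.8 ± 82.0 in BMM_d7_vavCre and 77.7 ± 46.9 in BMM_d7_WT (SD, n = 3 each, as for the next values). Tgfb1 averaged 124.1 ± 30.6 in RPM_d7_vavCre and 80.1 ± 9.23 in RPM_d7_WT, and 162.8 ± 26.9 in BMM_d7_vavCre and 196.3 ± 89.8 in BMM_d7_WT. Neither gene was called in either tissue. Il34, Tgfb2 and Tgfb3 reached at most 16.4, 64.2 and 23.3 in any of these libraries. Csf2, Csf3, Il3 and Il5, which encode GM-CSF, G-CSF, IL-3 and IL-5, were at 0 in all 12, where 3 reads would be 1.37 to 6.79 normalised reads.

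A few adaptor and feedback genes were called, in both directions. In both tissues Nrros, which anchors latent TGF-β on macrophages, rose with log2 changes of 0.57 in the spleen and 0.89 in the marrow (limma adjusted p = 0.00900 and 0.000151). The transcription factor gene Maf, which restrains self-renewal of macrophages, rose by 0.90 and 0.78 (adjusted p = 0.00150 and 0.00468), and Id2, an inhibitor of helix-loop-helix factors and a TGF-β target, fell by 3.30 and 2.58 (adjusted p = 5.032e-11 and 4.481e-09). Tyrobp, the adaptor DAP12, rose by 0.55 in the spleen (adjusted p = 0.000219), where Socs2, a STAT5-induced feedback inhibitor, fell by 1.80 (adjusted p = 0.0269). Ptpn6, the phosphatase SHP-1, rose by 0.72 in the marrow (adjusted p = 0.00352), where the integrin gene Itgav fell by 0.79 (adjusted p = 0.0156). No gene of the SMAD signalling list was called in either tissue. Between wild-type tissues Ptpn6, Id2 and Tgfbi were higher in the spleen and Maf and Id3 lower, and between vavCre tissues Itgav and Tyrobp were higher in the spleen. None of the 72 passed the test of the difference between the vavCre effects.

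Marker genes of the sorted cells were called in both directions. The 6 general macrophage markers summed to 101400 to 104200 in RPM_d7_vavCre against 55180 to 66740 in RPM_d7_WT, with Lyz2 and Maf called up and a median log2 change over the list of 0.22. Lyz2 alone averaged 45990 in RPM_d7_vavCre against 11980 in RPM_d7_WT, and Mertk averaged 4188 in RPM_d7_vavCre and 5900 in RPM_d7_WT (log2 change -0.51, limma adjusted p = 0.104). In the marrow the 6 general macrophage markers summed to 95420 to 106800 in BMM_d7_vavCre against 62600 to 68860 in BMM_d7_WT. There Adgre1, Lyz2 and Maf were called up and Fcgr1 and Mertk down, and Lyz2 averaged 50470 in BMM_d7_vavCre against 23570 in BMM_d7_WT. The 8 red pulp and island macrophage markers summed to 135500 to 156300 in RPM_d7_vavCre against 181700 to 205900 in RPM_d7_WT, with 1 up and 6 down. In the marrow they summed to 75910 to 84410 in BMM_d7_vavCre against 120200 to 125900 in BMM_d7_WT, with 1 up and 5 down. No marker of these lists was at 0 in any group. The 7 erythroid markers summed to 48160 to 70250 in RPM_d7_vavCre against 99370 to 147100 in RPM_d7_WT, and to 39210 to 59650 in BMM_d7_vavCre against 103300 to 147300 in BMM_d7_WT, with 6 and 7 of them called down. Of the monocyte, dendritic cell, eosinophil and basophil, T and NK cell, and progenitor markers none was called in either tissue. The eosinophil, basophil and mast cell markers summed to 21.5 to 65.9 in RPM_d7_vavCre and 58.4 to 1012 in RPM_d7_WT. In the marrow they summed to 58.8 to 4596 in BMM_d7_vavCre and 84.5 to 4662 in BMM_d7_WT. Between vavCre tissues the median log2 difference of that list was -4.25, spleen against marrow, and Cpa3 was called lower in the spleen. Of the B cell markers 1 fell in the spleen and 2 in the marrow, and of the endothelial and stromal markers Pecam1 fell in both. The monocyte markers summed to 309.9 to 687.6 in RPM_d7_vavCre against 752.3 to 845.1 in RPM_d7_WT, and to 282.9 to 541.8 in BMM_d7_vavCre against 711.8 to 1009 in BMM_d7_WT. The part of such other cells in the receptor values was not tested.

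In the libraries labelled Spic_KO none of the 10 receptor genes passed, where 3.95% of 16650 genes were called. That share rests on 658 genes, which became 1972 without RPM_d7_Spic_KO replicate 1, 297 without RPM_d7_Spic_KO replicate 2, and 261 to 355 without a library of RPM_d7_Spic_WT. The gene with the largest log2 change was Csf2ra, with 106.6 and 86.9 normalised reads in RPM_d7_Spic_KO against 40.4, 30.1 and 52.1 in RPM_d7_Spic_WT. Both Spic_KO libraries were above all controls, and the change was 1.25 (SE 0.50, interval 0.20 to 2.30, limma adjusted p = 0.178). DESeq2 on recovered reads called it (log2 change 1.33, adjusted p = 0.0326), and edgeR called none of the 10. By unadjusted p under 0.05 limma had 2 of the 10, Csf2ra and Il10rb, and 3094 of all genes. Csf2rb had 289.4 and 225.6 in RPM_d7_Spic_KO against 190.6, 175.2 and 154.1 in RPM_d7_Spic_WT, also without overlap, with a change of 0.56 (interval -0.25 to 1.37). Csf2rb2 had 40.6 and 34.7 in RPM_d7_Spic_KO and 28.6, 50.5 and 53.1 in RPM_d7_Spic_WT, which overlap.

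The other 3 genes whose values did not overlap between the libraries labelled Spic_KO and their controls were lower in Spic_KO, and none passed the threshold. Il10rb had 220.8 and 150.6 in RPM_d7_Spic_KO against 398.1, 314.3 and 246.0 in RPM_d7_Spic_WT, a log2 change of -0.78 (interval -1.54 to -0.02, limma adjusted p = 0.257). Gm21970, which shares words with Il10rb, averaged 119.0 in RPM_d7_Spic_KO and 297.9 in RPM_d7_Spic_WT. Tgfbr2 had 326.9 and 250.9 in RPM_d7_Spic_KO against 476.2, 452.0 and 380.3 in RPM_d7_Spic_WT, a change of -0.60 (interval -1.24 to 0.04, adjusted p = 0.304). Csf1r had 2715 and 2802 in RPM_d7_Spic_KO against 3702, 2879 and 3559 in RPM_d7_Spic_WT, a change of -0.29 (interval -0.71 to 0.14). In this comparison 34.2% of all genes did not overlap, so 5 of 10 is read against that share. Csf3r, with 52.1 and 16.0 in RPM_d7_Spic_KO and 35.4, 53.6 and 58.3 in RPM_d7_Spic_WT, had a change of -0.71 that became 0.11 without RPM_d7_Spic_KO replicate 2. Il3ra at 0.04 (interval -1.85 to 1.92), Il10ra at 0.45 (interval -0.35 to 1.25) and Tgfbr1 at 0.11 (interval -0.57 to 0.80) overlapped. Of the 72 ligand, adaptor and signalling genes 5 rose in Spic_KO and 3 fell, where 3.95% of all genes were called. Among those with the smallest p were Id2, which fell by 2.01 (limma adjusted p = 0.000384), Cebpb at 2.91 (0.0013), Skil at 1.90 (0.0164) and Bcl2l1 at 1.96 (0.0166). The neutrophil markers summed to 196.2 and 348.7 in RPM_d7_Spic_KO against 28.8 to 59.6 in RPM_d7_Spic_WT, with 1 called up, Mmp9, and Elane and Ly6g at 0 in both groups. The red pulp markers summed to 10570 in both libraries of RPM_d7_Spic_KO against 19880 to 28900 in RPM_d7_Spic_WT, with 4 called down. The macrophage markers summed to 4061 and 4626 in RPM_d7_Spic_KO against 6062 to 8958 in RPM_d7_Spic_WT, with Cd68 called down. The part of other cells in these values was not tested.

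**Figure D4:**
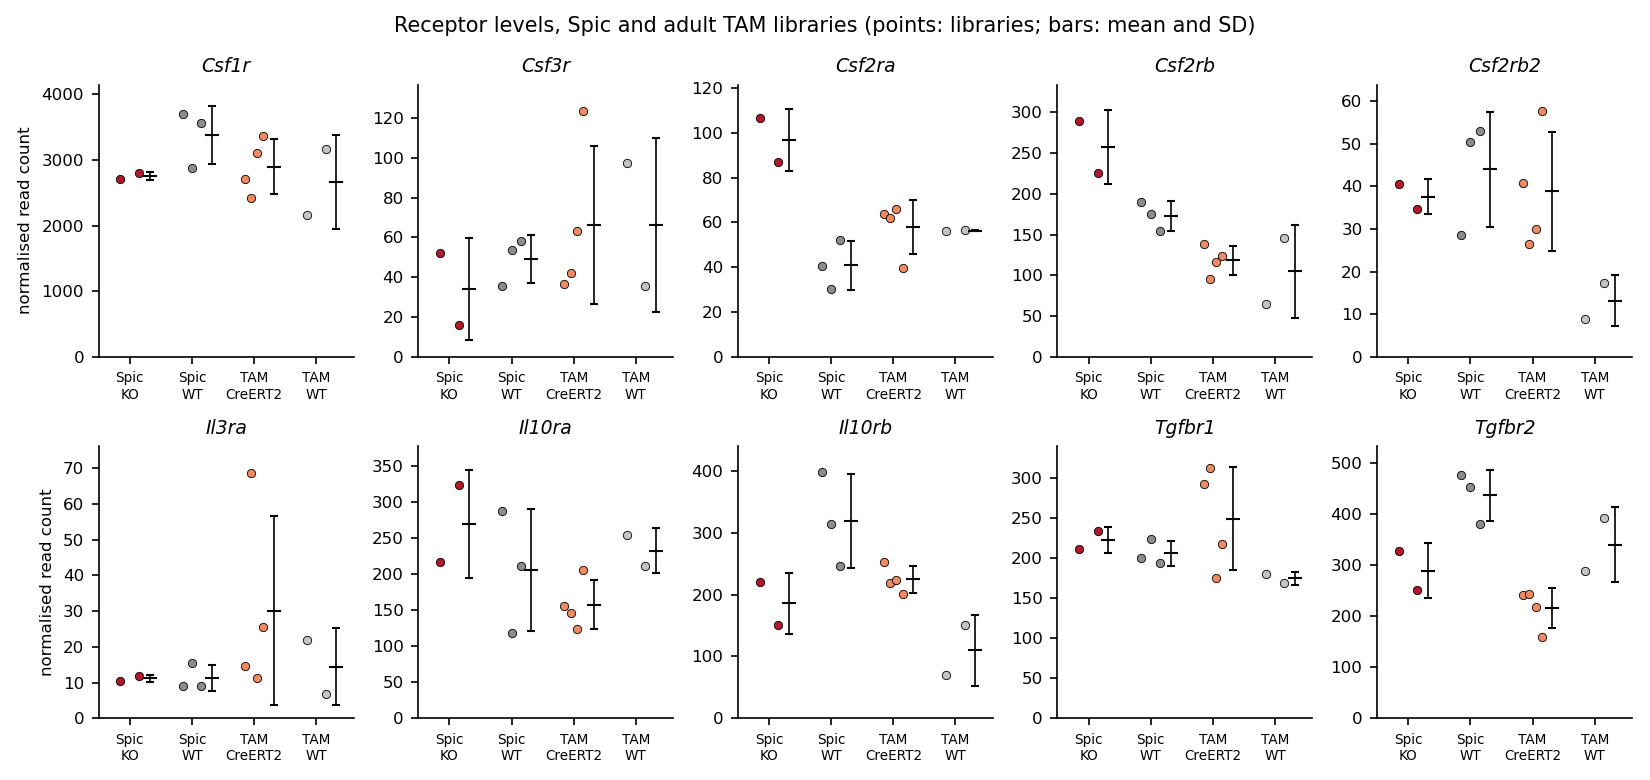
Normalised read count (vertical axis, linear, from 0) of each receptor gene in the 11 libraries of the other table; points are libraries and bars are the mean and SD of 2 to 4. Csf2ra lies higher in both libraries labelled Spic_KO than in their 3 controls, and Il10rb and Csf2rb2 lie higher in the 4 TAM_CreERT2 libraries than in the 2 TAM_WT libraries.

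In adult TAM_CreERT2 macrophages none of the 10 passed either, where 0.144% of all genes were called. Il10rb came closest, with 253.3, 219.4, 223.9 and 201.6 normalised reads in RPM_TAM_CreERT2 against 69.4 and 150.1 in RPM_TAM_WT. All 4 CreERT2 libraries were higher, and the log2 change was 1.12 (SE 0.35, interval 0.40 to 1.85, unadjusted p = 0.00411, limma adjusted p = 0.371). Gm21970, with which Il10rb shares words, averaged 241.0 in RPM_TAM_CreERT2 and 185.8 in RPM_TAM_WT. How reads were split between these genes was not tested. Csf2rb2 had 40.9, 26.6, 30.1 and 57.8 in RPM_TAM_CreERT2 against 8.98 and 17.4 in RPM_TAM_WT, a change of 1.49 (interval 0.22 to 2.77, adjusted p = 0.582). These rest on few reads, 12 to 45 in the CreERT2 libraries and 11 and 48 in wild type.

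Tgfbr2 lay the other way, with 240.8, 243.8, 218.3 and 159.2 in RPM_TAM_CreERT2 against 287.4 and 391.4 in RPM_TAM_WT, a log2 change of -0.66 (interval -1.26 to -0.05, limma adjusted p = 0.615). Il10ra had 155.6, 146.3, 124.2 and 205.5 in RPM_TAM_CreERT2 against 254.8 and 211.2 in RPM_TAM_WT, a change of -0.58 (interval -1.34 to 0.18). Neither gene's groups overlap. Of the 10 receptor genes 4 did not overlap, beside 13.7% of all genes that did not. Csf1r at 0.14 (interval -0.26 to 0.54), Csf2rb at 0.27 (interval -0.49 to 1.04), Tgfbr1 at 0.47 (interval -0.18 to 1.12), Il3ra at 0.86 (interval -0.93 to 2.65), Csf2ra at 0.01 (interval -0.98 to 1.00) and Csf3r at 0.00 (interval -1.31 to 1.31) overlapped. None of the 72 ligand, adaptor and signalling genes was called, Csf2 and Il3 were at 0 in all 11 libraries of this table, and Il10 averaged 66.3 ± 4.65 in RPM_TAM_CreERT2 (SD, n = 4) and 46.2 ± 31.6 in RPM_TAM_WT (SD, n = 2). By unadjusted p under 0.05, 3 of the 10 receptor genes passed, Csf2rb2, Il10rb and Tgfbr2, and 1244 of all 16650 genes, while edgeR and DESeq2 called none of the 10. The neutrophil markers summed to 150.3 to 775.6 in RPM_TAM_CreERT2 and 24.5 to 992.5 in RPM_TAM_WT, with none called. The erythroid markers summed to 101500 to 183500 in RPM_TAM_CreERT2 against 62920 to 93430 in RPM_TAM_WT, with Hba-a1 called up, and of the red pulp markers Itgad was called down. The part of other cells in these values was not tested.

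Genes whose log2 values ran most like each receptor gene over the 12 libraries of the first table had Pearson correlations of 0.831 to 0.973, among 10469 genes. These points share tissue, genotype and depth, so the correlations are a description. Csf2rb ran most like Rab11fip5 and Zcchc24 (both 0.973) and Mcoln2 (0.965), and Csf2rb2 like Ptprj (0.962) and Lamp2 (0.959). Csf1r ran most like the cathepsin gene Ctsl (0.956), Ssh2 (0.954) and Zdhhc16 (0.942). Tgfbr2 ran most like Trappc1 (0.971), Hsbp1 (0.961) and Cd209g (0.95), and Il10ra most like Slc7a7 (0.959) and the complement gene C6 (0.952). For the other 5 the closest genes were Fuca1 for Il10rb (0.952), Cul9 for Csf3r (0.929), Specc1l for Il3ra (0.906), Wdr70 for Tgfbr1 (0.898) and Cerkl for Csf2ra (0.944). Over the 11 libraries of the other table the closest genes had correlations of 0.831 to 0.961.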

How the data were processed

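Libraries were made from 1000 sorted cells each, with oligo-dT priming, PCR and Nextera XT tagmentation, per the labels' protocols. The deposited signal values are read counts per gene that the authors normalised within each of 2 tables. STAR, edgeR and GRCm38 are named, per the submitters' processing notes, and their versions and settings are not given in the sources used here. Molecular identifiers are not mentioned, so reads may be PCR copies. Low values were whole multiples of 1 read in 96.6 to 100% of cases per library (tolerance 0.1 read, up to 500 reads), and read numbers were recovered from them.

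Because the values are normalised, log2(value + 1) was tested with limma 3.58.1 (R 4.3.3; trend, robust), with 1 mean per group, on the 15130 and 16650 genes that reached a value of 1 in 2 or more libraries. P-values were adjusted by Benjamini-Hochberg over all genes, with a threshold of 0.05, for 7 comparisons. Alternatives were other filters (none, 10) and pseudocounts (0.1, 5), compared groups only, a replicate block, each library left out, the beta chains summed, a log2 limit of 1, and edgeR 4.0.16 and DESeq2 1.42.0 on recovered reads. The limma fit was tried on simulated data for the vavCre spleen and the Spic_KO comparisons. Every gene there had the same dispersion and no library stood apart, so it cannot show how the fit handles such libraries.

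Groups follow the labels. The 10 receptor genes and all gene lists were chosen with earlier results of these data known. The receptor genes are all named, as are ligands, up to 6 called pathway genes with the smallest p per comparison, and genes of like pattern by Pearson correlation. A few genes that this rule names are not reported here. Replicate numbers were not used to pair samples in the main fit. Correlations of same-numbered deviations were -0.04 to 0.06, which cannot show whether same-numbered libraries came from the same animal. Gene positions are from GENCODE vM21, and promoters from RefSeq.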

Additional observations from a re-analysis of the deposited data

Results flagged for a closer look

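In RPM_TAM_CreERT2 the Csf2ra value of replicate 5 was 39.81 normalised reads, against 62.05 to 65.85 in the other 3 libraries, a gap that is 0.854 of the group's whole range. Of the 10 receptor genes tested in this group for a library far from the others, it alone stood out. Chance alone gives about 1 in 20 for each gene tested. The value rests on 31 reads. RPM_TAM_WT had 56.34 and 56.43.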

How the results depend on the processing

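Of 1156 values of the receptor genes under alternatives, 1084 kept direction and side of the threshold, 10 lost a call, 14 gained one and 48 changed sign, none of these called. Between wild-type tissues Csf2rb was -0.007 in edgeR with RLE and -0.006 in DESeq2. In TAM_CreERT2, Csf3r was -0.002 with a pseudocount of 5 and -0.008 in edgeR with TMM, and Csf2ra was 0 in edgeR with TMM. In Spic_KO, Il3ra was -0.08 under the replicate block and -0.001 in edgeR with TMM. With both libraries that stood apart left out, chosen after seeing the data, Csf3r was 0.114 and Il3ra -0.043 in Spic_KO, and Csf2ra -0.034 in TAM_CreERT2. The cause was not tested.

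Leaving out each library gave these log2 ranges. For vavCre they were -0.005 to 0.221 for Tgfbr1 in the spleen, and -0.1 to 0.506 for Csf2ra and -0.09 to 0.139 for Tgfbr1 in the marrow. For the difference of the vavCre effects they were -0.041 to 0.566 for Csf2ra, -0.157 to 0.04 for Csf2rb, -0.078 to 0.181 for Il10rb and -0.038 to 0.199 for Tgfbr1. Between vavCre tissues they were -0.406 to 0.2 for Csf2ra and -0.146 to 0.018 for Csf2rb. Between wild-type tissues they were -0.078 to 0.065 for Csf2rb, -0.078 to 0.477 for Csf3r, -0.081 to 0.263 for Il3ra and -0.116 to 0.014 for Tgfbr2. In Spic_KO they were -1.524 to 0.114 for Csf3r and -0.08 to 0.273 for Il3ra. In TAM_CreERT2 they were -0.138 to 0.417 for Csf1r, -0.062 to 0.176 for Csf2ra, -0.306 to 0.854 for Csf2rb and -0.715 to 0.715 for Csf3r.

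With a log2 change of at least 1 required, 1 receptor gene was called in the spleen, 2 in the marrow and 0 between wild-type tissues. Of all 15130 genes tested, 546, 830 and 329 were called there. Between vavCre tissues 1 was called with the strict filter (563 of all genes), in edgeR with TMM (498) and in DESeq2 (963). With a library left out it was 0 to 1. In Spic_KO 1 was called by DESeq2 (1736 of all genes). The replicate block gave 4 receptor genes in the spleen, 4 in the marrow, 2 between wild-type tissues and 0 elsewhere. Over all genes it gave 784 in the spleen, 1094 in the marrow and 537 between wild-type tissues. In Spic_KO it gave 0 of all genes, against 658 without it. In TAM_CreERT2 the groups share only number 1, and no block was fitted.

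Counts over all genes moved by over 1.5 times under DESeq2 (1290 in the spleen, 101 for the difference, 966 between wild types, 963 between vavCre tissues, 1736 in Spic_KO and 137 in TAM_CreERT2), in edgeR (31 for the difference, 1035 in Spic_KO with RLE), with compared groups only (1367 in the spleen, 742 in the marrow, 37 in TAM_CreERT2), with no filter (11 for the difference, 5 in TAM_CreERT2), with pseudocounts of 0.1 and 5 (14 and 9 in TAM_CreERT2), with the log2 limit (546 in the spleen, 329 between wild types) and without the libraries that stood apart (47 in TAM_CreERT2). With each library left out they ran from 536 to 649 in the spleen, 269 to 665 between wild types, 271 to 479 between vavCre tissues, 261 to 1972 in Spic_KO, 2 to 18 in TAM_CreERT2 and 11 to 24 for the difference. Csf2rb2 had 11 to 48 reads in the adult libraries, so small differences in it were not detectable at this depth.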
